A study of Rattus norvegicus with 6 samples.

Results

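The genes of the proteasome, the protease complex that degrades ubiquitin-tagged proteins, were examined in irradiated rat keratinocytes. They were taken as all genes whose single annotation symbol begins with Psm, a letter from a to g and a number, each read from its probe set of highest mean intensity over the 6 arrays. This gave 46 of 14217 genes with a single symbol. Of these, 16 encode the core (Psma and Psmb), 20 the regulatory cap (Psmc and Psmd), 3 the activators (Psme), 1 an inhibitor (Psmf1) and 4 assembly chaperones (Psmg). The remaining 2, Psmc3ip and Psme3ip1, are named for binding a subunit and are not part of the complex. All 46 passed the filter on dim probe sets. Psma8, Psmb6, Psmb11 and Psme3 had no probe set of a single symbol and were not analysed here.

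RNA came from 1 immortalized keratinocyte line, derived from back (dorsal) skin of neonatal male Sprague-Dawley rats. Controls (n = 3) were left unexposed. The exposed group (n = 3) was given 3 Gy of 56Fe ions (1.01 GeV per nucleon), which are heavy charged particles present in cosmic rays. Each sample was hybridised to 1 Affymetrix rat expression array, and the time from exposure to RNA extraction is not stated in the labels. Nor do they say whether replicates were grown apart, so the p-values cover the spread among these arrays, and that spread may be purely technical.

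The core of the proteasome is a stack of 4 rings. The outer rings of alpha subunits gate the chamber, and the inner rings of beta subunits hold the catalytic sites. The cap binds ubiquitin chains, removes them and unfolds the substrate with a ring of ATPases. In immune signalling, interferon-gamma induces Psmb8, Psmb9 and Psmb10, which replace catalytic beta subunits and form the immunoproteasome. Dividing cells depend on the complex to clear cyclins and securin, and keratinocytes use it to set the levels of p53 and p63.

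No gene of the complex, its activators, its inhibitor or its chaperones passed the test after irradiation. Limma called 0 of these 44 genes at an adjusted p under 0.05, as deposited and quantile normalized, where it called 2.06% of all 18625 tested probe sets as deposited (1.5% higher, 0.558% lower) and 1.87% after quantile normalization. At an unadjusted p under 0.05 there were 10 of the 44 (22.7%), 8 lower and 2 higher, against 13.3% of all tested probe sets (5.91% lower, 7.42% higher). After quantile normalization there were 6 of the 44, against 13% of all, so that the share of these genes was then near the background. The smallest adjusted p among the 44 was 0.162, for Psmg4. After quantile normalization it was 0.148, for Psme4. The 1 member that passed as deposited was Psmc3ip, which is not a proteasome subunit.

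The precision limits how large a change could have gone unseen. For 41 of the 44 genes the 95% confidence interval of the log2 change lay within 0.5 of 0, as it did for 65.4% of all tested probe sets; this width was chosen after the values were seen. The 3 exceptions were Psmc6 (-0.57 to 0.17), Psmd10 (-0.56 to -0.07) and Psme4 (0.10 to 0.61). All log2 changes are irradiated minus unirradiated on the scale of log2(intensity + 16), which understates changes of dim genes.

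**Figure D1:**
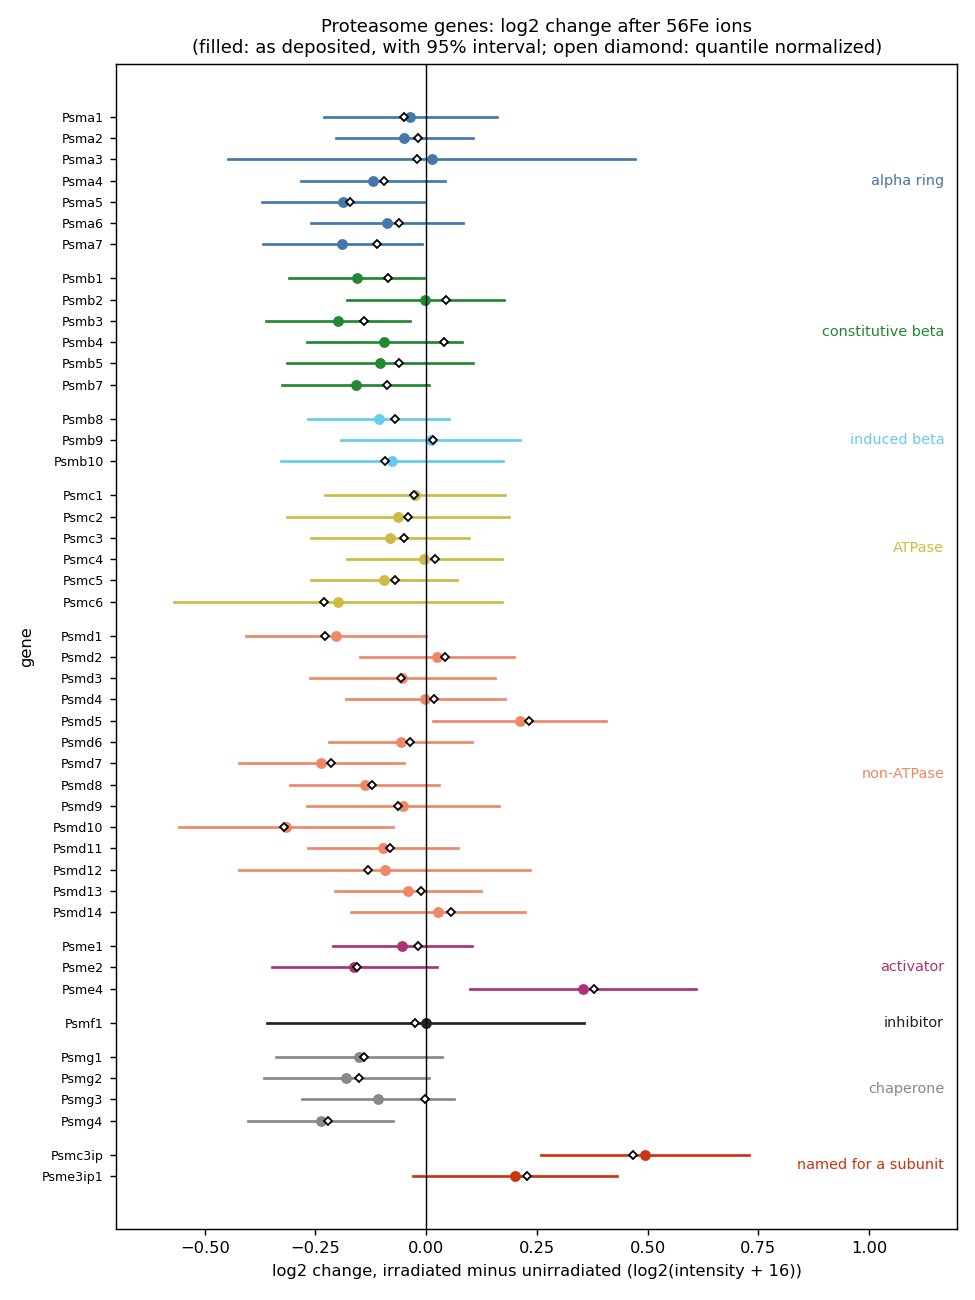
Log2 change (x axis) of each of the 46 genes (y axis), grouped by role. Filled circles and lines are the values as deposited with their 95% confidence intervals, and open diamonds are the quantile normalized values. Most circles lie a little left of 0, while Psmd5, Psme4, Psmc3ip and Psme3ip1 lie to the right at 0.20 or more.

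Small negative values were the common pattern. As deposited, 38 of the 44 genes (86.4%) lay below 0, and their median log2 change was -0.09, beside 49.5% and a median of 0.0024 over all tested probe sets. After quantile normalization, which gives every array the same distribution of values, 35 of the 44 (79.5%) were below 0, with a median of -0.06, beside 51.7% and -0.0071. All 3 irradiated arrays lay below all 3 unirradiated ones in 11 of the 44 genes (25%), against 8.92% of all tested probe sets. They lay above them in 1 gene, Psmd5, against 10.2%.

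Brightness went with this pattern. Of the 44 genes, 24 fell in the brightest decile of tested probe sets (mean intensity from 801 upwards) and 12 in the decile below it. In the brightest decile as a whole, 70.4% of probe sets were below 0 with a median of -0.07, and in 19.5% all irradiated arrays lay below all unirradiated ones. The 24 proteasome genes there held 21 values below 0 with a median of -0.10, and 7 of them had all irradiated arrays lower. With quantile normalization the brightest decile had a median of -0.01 and 54.4% below 0. The 24 genes then had a median of -0.06, with 19 below 0. How far brightness accounts for the values of these genes was not tested.

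**Figure D2:**
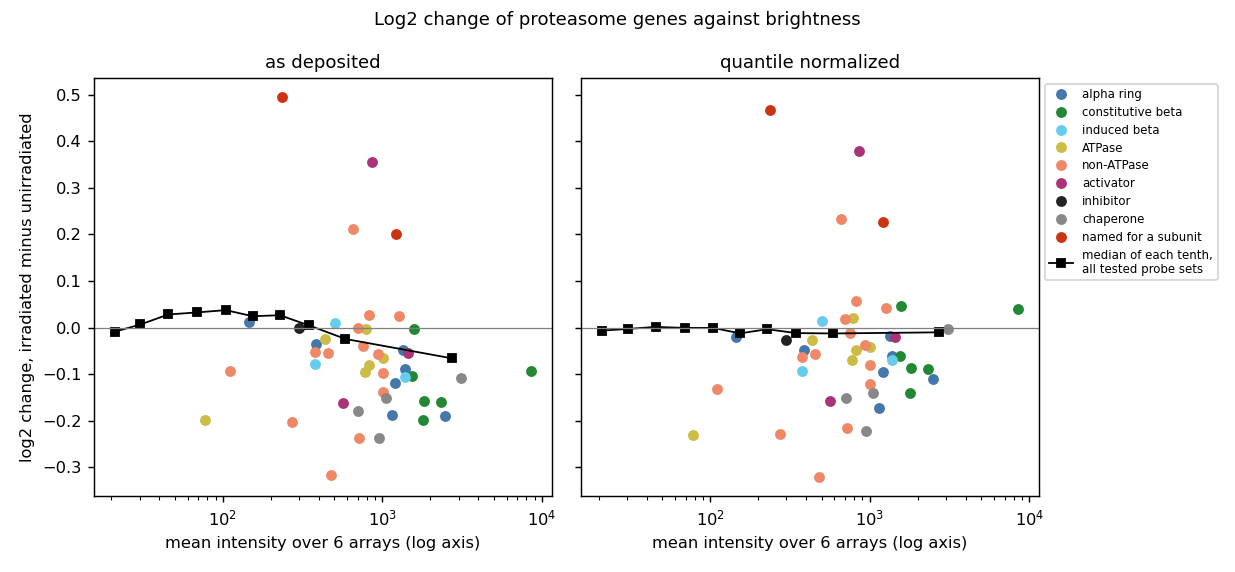
Log2 change (y axis) of the 46 genes against mean intensity over 6 arrays (x axis, log scale), as deposited on the left and quantile normalized on the right. Coloured points are genes by role, and black squares are the medians of each decile of all tested probe sets. On the left the squares fall to -0.07 at the bright end, where most proteasome genes lie, and on the right they stay near 0.

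The core genes as a group had a median log2 change of -0.10 as deposited and -0.07 quantile normalized. Limma called 0 of the 16, beside 2.06% of all tested probe sets. At an unadjusted limma p under 0.05 there were 4 as deposited, all lower, and 0 after quantile normalization. Of all tested probe sets 13.3% (5.91% lower) and 13% had such a p. Below 0 lay 14 core genes as deposited and 13 quantile normalized, beside 49.5% and 51.7% of all. Among the 7 alpha ring genes the values ran from -0.19 (Psma7) to 0.01 (Psma3). Psma3 was read by a dim, variable probe set, with an interval from -0.45 to 0.47. Among the 6 constitutive beta genes they ran from -0.20 (Psmb3) to -0.0022 (Psmb2), and all 6 were below 0. With quantile normalization 2 of those 6 turned above 0, Psmb2 (0.05) and Psmb4 (0.04).

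Psmb3, a beta subunit without a catalytic site, had the smallest p of the core. Its intensities were 1923.2, 1885.5 and 1932.0 on the unirradiated arrays and 1796.0, 1607.2 and 1597.2 on the irradiated ones. The groups did not overlap, with irradiated replicate 1 closest to the controls. The log2 change was -0.20 (95% interval -0.36 to -0.04; limma adjusted p = 0.247) and -0.14 quantile normalized. Psma7, of the alpha ring, read 2741.3, 2604.0 and 2559.4 without and 2585.7, 2200.9 and 2161.2 with irradiation. Here irradiated replicate 1 lay within the control range and the other irradiated arrays lay below it. Its log2 change was -0.19 (limma adjusted p = 0.343) and -0.11 quantile normalized. Psmb1, which also lines the inner rings, went from 1925 ± 35.1 to 1726 ± 63.3 (mean ± SD, n = 3). Psma5, another alpha subunit, went from 1218 ± 84.4 to 1068 ± 79.1. In both genes the groups did not overlap, and limma gave adjusted p = 0.358 for Psmb1 and 0.361 for Psma5.

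Psmb5, the constitutive subunit with chymotrypsin-like activity and the target of bortezomib, went from 1601 ± 231 to 1480 ± 65.8, a log2 change of -0.10 (-0.31 to 0.11). Unirradiated replicate 3, at 1866.5, stood above the other 5 arrays, which lay between 1417.9 and 1549.0.

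None of the immunoproteasome genes passed the test. Psmb8, the inducible counterpart of Psmb5, read 1442.1, 1428.2 and 1425.3 without and 1409.4, 1304.7 and 1274.8 with irradiation. All irradiated values were lower, the nearest by a small margin, and the log2 change was -0.11 (-0.27 to 0.05; limma adjusted p = 0.583). Psmb9, the inducible caspase-like-site replacement, read 462.8, 477.7 and 565.4 against 491.3, 506.2 and 513.5. The irradiated values lay inside the control range, with a log2 change of 0.0098 (-0.19 to 0.21) whose sign turned with median centring (-0.0015). Psmb10, the inducible trypsin-like subunit, read 390.4, 390.8 and 379.4 against 400.7, 409.5 and 297.9. Irradiated replicate 3 was the lowest of the 6 arrays and the other irradiated arrays were the highest. The log2 change of Psmb10 was -0.08, and 0.06 without irradiated replicate 3.

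In the rat genome (RefSeq, assembly GRCr8) Psmb8 and Psmb9 alternate with the peptide transporter genes in the order Tap2, Psmb8, Tap1, Psmb9. Tap1 and Tap2, which load peptides made by the proteasome into the endoplasmic reticulum, had log2 changes of -0.13 (-0.37 to 0.12) and -0.28 (-0.56 to -0.01), neither passing limma (adjusted p = 0.695 and 0.359). The 15 measured genes of MHC class I presentation and interferon-gamma signalling had a median log2 change of 0.01. Limma called 0 of them, beside 2.06% of all tested probe sets. At an unadjusted limma p under 0.05 there were 3, Erap1, Ifngr2 and Tap2, beside 13.3% of all. The smallest p was that of Erap1, the aminopeptidase that trims peptides for MHC class I. It read 151.4, 131.9 and 122.4 without and 201.1, 183.6 and 158.2 with irradiation, a log2 change of 0.38 (limma adjusted p = 0.176). The groups did not overlap. Ifngr2, a chain of the interferon-gamma receptor, went from 577 ± 32.6 to 492 ± 39.8 (log2 change -0.22; limma adjusted p = 0.285).

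**Figure D3:**
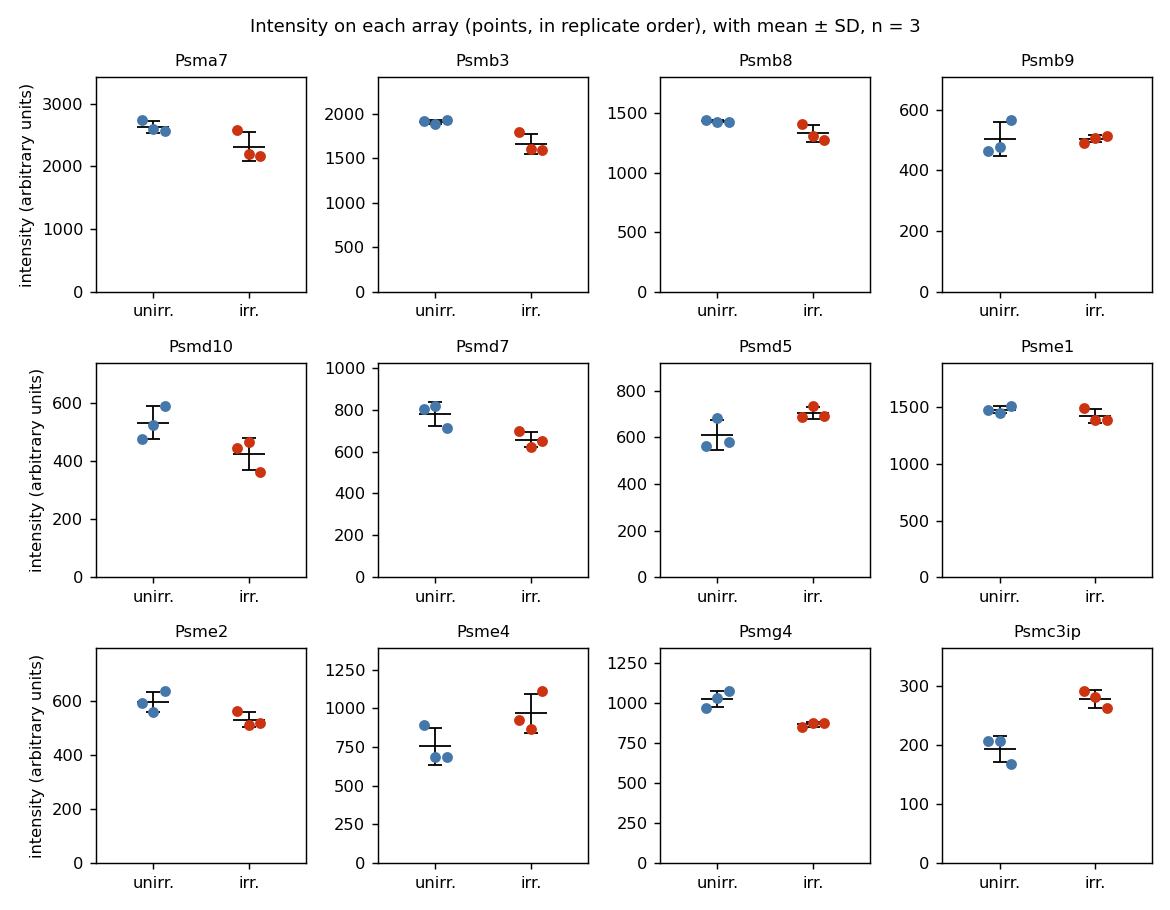
Intensity (y axis, arbitrary units from 0) on each array for 12 genes, unirradiated in blue and irradiated in red, with the mean and SD of 3 arrays. Psma7, Psmb9, Psme1, Psme2 and Psme4 overlap between groups, and Psmd5 and Psmc3ip lie higher in all irradiated arrays. Psmb3, Psmb8, Psmd7, Psmd10 and Psmg4 lie lower in all of them, Psmb8 by a small margin.

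The cap genes had a median log2 change of -0.06 as deposited and -0.05 quantile normalized, close to that of the core. Limma called 0 of the 20, beside 2.06% of all tested probe sets. An unadjusted limma p under 0.05 was held by 4 as deposited (3 lower and 1 higher) and by 4 quantile normalized. Of all tested probe sets 13.3% and 13% had such a p. In the cap 17 genes were below 0 as deposited and 15 quantile normalized, beside 49.5% and 51.7% of all. The 6 ATPase genes, Psmc1 to Psmc6, ran from -0.20 (Psmc6) to -0.0037 (Psmc4). Psmc2 varied most between the irradiated arrays of the brighter ATPases, at 875.2, 874.5 and 1211.4 against 1089.3, 992.5 and 983.3. Irradiated replicate 3 was the highest of all 6 arrays and the other irradiated arrays were the lowest.

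The 14 non-ATPase genes spread more widely, from -0.32 for Psmd10 to 0.21 for Psmd5. Both encode chaperones that bind ATPases while the base of the cap is assembled, and their values lay on opposite sides of 0. Psmd10, also called gankyrin and known as a regulator of Rb and p53 turnover, read 477.3, 525.6 and 590.8 without and 445.9, 465.2 and 361.9 with irradiation. The groups did not overlap, and the log2 change was -0.32 (-0.56 to -0.07; limma adjusted p = 0.215). Psmd5 read 562.0, 681.8 and 581.8 against 685.7, 735.6 and 693.1. All irradiated values were higher, the nearest only just above the highest control, and the log2 change was 0.21 (0.01 to 0.41; limma adjusted p = 0.328). Psmd9, a further chaperone of the base, had a log2 change of -0.05, and 0.26 by a dim second probe set; neither passed limma.

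Psmd7, a lid subunit that pairs with the deubiquitinase Psmd14, was measured by a pair of probe sets with like values. The brighter one read 802.3, 818.9 and 712.9 without and 696.4, 623.0 and 652.3 with irradiation. Its groups did not overlap, with a log2 change of -0.24 (-0.42 to -0.05; limma adjusted p = 0.228). The dimmer one had a change of -0.26 (limma adjusted p = 0.214), and its arrays did not overlap either. Psmd14 itself had changes of 0.03, 0.07 and -0.09 by its 3 probe sets. Psmd1, the large scaffold of the base, went from 292 ± 15.0 to 252 ± 9.43, a log2 change of -0.20 (limma adjusted p = 0.371). The ubiquitin receptor Psmd4 was at 699 ± 43.4 and 697 ± 31.6, and the scaffold Psmd2 at 1262 ± 87.2 and 1283 ± 68.8.

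Among the activators, Psme4 stood apart from Psme1 and Psme2 in sign. Psme4 encodes PA200, a nuclear activator that opens the core without ubiquitin and is known for binding acetylated histones. Its brightest probe set read 893.5, 685.4 and 686.7 without and 923.3, 868.2 and 1111.7 with irradiation. Unirradiated replicate 1 lay above irradiated replicate 2, so that the groups overlapped. The ratio of means was 1.28 and the log2 change 0.35 (0.10 to 0.61; limma adjusted p = 0.182), and 0.38 quantile normalized (limma adjusted p = 0.148). A second probe set of almost equal brightness had a change of 0.17 (-0.03 to 0.36) and a dimmer one had 0.03 (-0.27 to 0.33). The size of the Psme4 value therefore differed between its probe sets, and 0 of the 3 passed.

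Psme1 and Psme2 encode the alternating subunits of PA28, an interferon-inducible activator that docks on the ends of the core. Psme1 read 1471.2, 1446.0 and 1512.2 against 1491.8, 1387.0 and 1388.4, a log2 change of -0.05 (-0.21 to 0.10). Psme2 read 591.8, 559.6 and 636.0 against 563.1, 511.3 and 516.8, a log2 change of -0.16 (-0.35 to 0.02). In both genes the groups overlapped through irradiated replicate 1. Limma called 0 of the 3 activators, beside 2.06% of all tested probe sets, and their median log2 change was -0.05. An unadjusted limma p under 0.05 was held by 1, Psme4, beside 13.3% of all.

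Psmf1, which encodes the proteasome inhibitor PI31, was at 301 ± 73.5 and 297 ± 50.3, a log2 change of -0.0012 (-0.36 to 0.36). Its sign turned without unirradiated replicate 2 (0.11) or 3 (0.09) and without irradiated replicate 1 (0.11) or 2 (0.01).

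The 4 assembly chaperone genes, Psmg1 to Psmg4, which build the alpha ring of the core, all had log2 changes below 0, with a median of -0.17 as deposited and -0.15 quantile normalized. Psmg4 read 969.8, 1030.3 and 1072.6 without and 848.7, 873.3 and 873.8 with irradiation. The irradiated values were tightly grouped below the controls, with a log2 change of -0.24 (-0.40 to -0.07; limma adjusted p = 0.162). The changes of Psmg1, Psmg2 and Psmg3 were -0.15, -0.18 and -0.11, and that of Psmg3 was -0.0030 quantile normalized. In each of these 3 genes the groups overlapped. Limma called 0 of the 4, beside 2.06% of all tested probe sets. An unadjusted limma p under 0.05 was held by 1, Psmg4, beside 13.3% of all. Of all tested probe sets 49.5% lay below 0 as deposited and 51.7% quantile normalized.

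**Figure D4:**
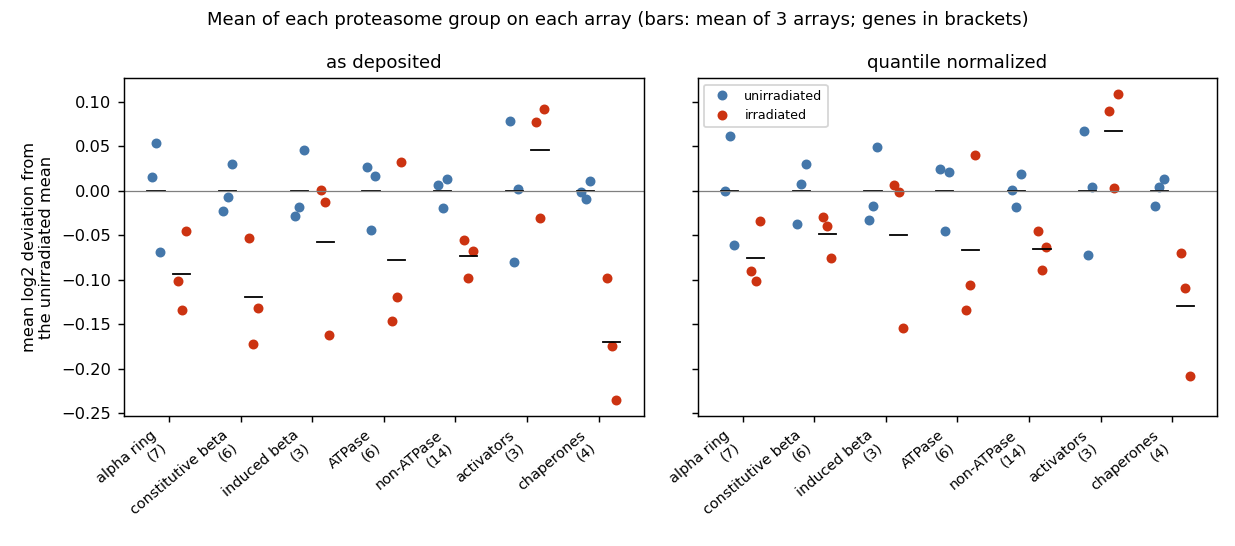
Mean log2 deviation of each group from the unirradiated mean (y axis) on each array (points), as deposited on the left and quantile normalized on the right. Horizontal bars are means of 3 arrays, and numbers in brackets are genes in the group (x axis). The non-ATPase, constitutive beta and chaperone means of the irradiated arrays lie below those of all unirradiated arrays as deposited. The constitutive beta groups overlap with quantile normalization, and the activators overlap in both panels.

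Set side by side, the means of core and cap lay below the unirradiated mean on each irradiated array. They lay furthest apart, as deposited, in irradiated replicate 3, and the difference between them was not tested. As deposited, the mean of the 16 core genes lay at -0.06, -0.13 and -0.10 from the unirradiated mean in irradiated replicates 1, 2 and 3, and that of the 20 cap genes at -0.08, -0.10 and -0.04. The unirradiated arrays lay between -0.01 and 0.02 for the core and between -0.03 and 0.01 for the cap. With quantile normalization the core values of the irradiated arrays were -0.05, -0.06 and -0.07, and the cap values were -0.07, -0.09 and -0.03. As deposited, the 3 activators lay at 0.08, -0.03 and 0.09, beside -0.08 to 0.08 on the unirradiated arrays. With quantile normalization they lay at 0.09, 0.0029 and 0.11, beside -0.07 to 0.07.

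Of the other proteins that work with the complex, 13 were measured, with a median log2 change of -0.04. Limma called 0 of them, beside 2.06% of all tested probe sets. At an unadjusted limma p under 0.05 there were 2, Sem1 and Akirin2, beside 13.3% of all. Sem1, a small lid subunit outside the Psm naming, read 2134.4, 2350.1 and 2328.4 without and 1460.1, 1965.1 and 1962.1 with irradiation. All irradiated values were lower, irradiated replicate 1 by the most, and the log2 change was -0.35 (-0.58 to -0.12; limma adjusted p = 0.149). Akirin2, which carries assembled proteasomes into the nucleus, read 686.0, 739.1 and 871.8 against 976.6, 984.1 and 981.3. All irradiated values were higher, with a log2 change of 0.36 (0.16 to 0.56; limma adjusted p = 0.0748). It passed without unirradiated replicate 3 (0.45, limma adjusted p = 0.0194) and narrowly with the probe sets of each gene averaged (limma adjusted p = 0.0490). Over its 16 alternatives the adjusted p ran from 0.0194 to 0.272. The core maturation factor Pomp had a change of -0.11, and the ubiquitin receptor Adrm1 of -0.10.

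Among 17 measured genes of ubiquitin activation and of shuttle factors that bring tagged proteins to the cap, the median log2 change was -0.02. Limma called 0, and 0 had an unadjusted p under 0.05, beside 2.06% and 13.3% of all tested probe sets. The smallest p in this list were those of the shuttle factor Ubqln4 (log2 change 0.14) and the chain-extending ligase Ube4a (-0.28), with limma adjusted p = 0.535 and 0.541.

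The regulators of proteasome genes were also without a call. Nfe2l1 encodes NRF1, a transcription factor that raises proteasome genes together when the protease is inhibited, and Nfe2l2 encodes NRF2. Among 12 measured regulators the median log2 change was -0.09. Limma called 0, and 0 had an unadjusted p under 0.05, beside 2.06% and 13.3% of all tested probe sets. Nfe2l1 read 817.0, 594.6 and 672.7 without and 668.2, 529.3 and 573.9 with irradiation, with overlapping groups and a log2 change of -0.22 (limma adjusted p = 0.458). Nfe2l2 read 1743.7, 1523.8 and 1378.2 against 1345.8, 1334.6 and 1396.7. Its groups overlapped through irradiated replicate 3 and the log2 change was -0.18 (limma adjusted p = 0.417).

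Both factors bind antioxidant response elements, so the promoters of the 44 genes were searched for the core of that element, TGACNNNGC, on both strands. RefSeq promoters of assembly GRCr8, 250 bases before to 50 after the start, were held for 40 of them; Psma7, Psmd6, Psmd12 and Psmd14 had no entry. The letters occurred in 7 of the 40 (17.5%), beside 12.1% of all 33469 promoters of that length. The matches that lie before the start of 6 genes are shown, since they include Psme4, Psmd1 and Psmb5 described above, with the element in capitals and 10 bases on each side. Psmd9 held a second match further before its start and Psmd1 another after it, neither shown.
Psme4, chr14:108706578-108706606, minus strand: ggcgaggaggTGACCCAGCggctttctcc
Psma3, chr6:95219727-95219755, minus strand: ctcatggtgcTGACCCGGCaggccacaga
Psmb2, chr5:144254980-144255008, plus strand: cccgcgccaaTGACCGGGCggtcgcatat
Psmb5, chr15:32047421-32047449, minus strand: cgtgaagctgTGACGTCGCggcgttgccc
Psmd1, chr9:94157796-94157824, plus strand: accagatctaTGACCTCGCgagaattata
Psmd9, chr12:39018323-39018351, minus strand: gagtttccggTGACCTCGCcccacctcca
The seventh gene, Psmd3, held its match after the start.

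The 7 genes with these letters had log2 changes from -0.20 (Psmd1) to 0.35 (Psme4), with a median of -0.05, and the 33 without them had a median of -0.10. The letters CCAAT, bound by NF-Y, occurred in 20 of the 40 promoters (50%), beside 37.5% of all, and the genes with and without them had medians of -0.07 and -0.10. A match is a description of the sequence, and nothing about binding was measured here.

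Psmc3ip was the 1 gene of the 46 that limma called as deposited, and it was called higher. It encodes HOP2, a partner of the recombinases in homologous pairing, and it owes its symbol to an interaction with the ATPase Psmc3. It read 205.8, 206.5 and 168.0 without and 290.8, 281.7 and 261.7 with irradiation. All irradiated arrays lay well above the controls, a ratio of means of 1.44 and a log2 change of 0.49 (0.26 to 0.73; limma adjusted p = 0.0359). The direction held in all 16 alternatives (0.40 to 0.54), but the call ended in 10 of them, with quantile normalization (limma adjusted p = 0.0554) and without any 1 of the 6 arrays among these (0.0558 to 0.155). Psmc3 itself had a log2 change of -0.08 (-0.26 to 0.10). Psme3ip1, a nuclear protein that binds the activator Psme3, read 1057.4, 1262.7 and 1064.7 against 1452.5, 1347.3 and 1107.7, a log2 change of 0.20 with overlapping groups (limma adjusted p = 0.458).

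Several measures of the samples stand beside these values. All 14 measured keratinocyte markers passed the filter, and 4 of them were called lower, Tp63, Krt15, Krt17 and Sfn. Of all tested probe sets 0.558% were called lower. In this list 12 markers lay below 0 and 8 had an unadjusted limma p under 0.05, beside 49.5% and 13.3% of all. After quantile normalization limma called 3 of the 14. Without a trend all 4 calls were lost (limma adjusted p = 0.0781 for Tp63, 0.119 for Krt15, 0.176 for Krt17 and 0.167 for Sfn), and over the 16 alternatives the call was lost in 1, 5, 8 and 7 of them in that order. The summed intensity of the 14 was 39307 to 44731 without and 33014 to 36741 with irradiation. Of 12 measured immune cell markers 9 were below the filter, among them Ptprc and Cd74, and limma called 0 of the other 3. An unadjusted limma p under 0.05 was held by 1, RT1-Ba, with a log2 change of 0.57 (limma adjusted p = 0.0669). RT1-Ba passed with the filter at the 60th percentile (limma adjusted p = 0.0461) and was at 0.06 with probe sets averaged. Fcer1g was at 0.16 (limma adjusted p = 0.751) and Csf1r at -0.03. The sum of all 12 was 181 to 209 and 214 to 272, and most of that rise was in RT1-Ba (mean 60.1 to 97.4). Of 10 fibroblast markers 7 were below the filter, and 1 of the other 3, Col3a1, was called lower (mean 413 to 295). That call was lost in 7 of 16 alternatives. The other 2 lay above 0, Col1a1 at a log2 change of 0.65 (limma adjusted p = 0.0775) and Vim at 0.05. Col1a1 was at 0.13 with probe sets averaged. The sum of all 10 was 498 to 586 and 456 to 481. The part of these markers in the values of the proteasome genes was not tested. For 17 of the 46 genes RefSeq names pseudogenes, 40 in all and 7 of Psmb3 alone, and a probe set may read such copies. Of 10 other tested probe sets of these genes, 7 had the same sign as the one used.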

How the data were processed

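The deposited table holds 1 linear intensity per probe set and array, and the authors had brought the arrays to a common level (mean after trimming 2% at each end, 150.04 to 150.05). The design text names BRB ArrayTools 3.3.0; the summary method is not given in the sources used here. Of 31099 probe sets, 57 controls and those below the 40th percentile of mean log2 intensity were left out, which kept 18625. The log2(intensity + 16) values entered limma 3.58.1 (R 4.3.3; lmFit, eBayes with trend, irradiated minus unirradiated, two-sided), with the Benjamini-Hochberg adjustment made across every tested probe set and a threshold of 0.05. The number of arrays, 3 per group, limits the precision: the median SE was 0.14 over all and 0.08 over the 44 genes of the complex. Fits were tested on simulated data. Symbols came from the platform annotation, and 46 of 46 matched RefSeq by Entrez ID.

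Named genes were those called, the 4 of core and of cap with the smallest p, all activators, chaperones, the inhibitor and the induced beta genes, and the 2 smallest p of each list; Psmb5, Psmc2, Psmd2, Psmd4, Psmd9, Psmd14, Psmc3, Tap1, Tap2, Pomp, Adrm1 and those at the ends of ranges were named after their values were seen. Members and lists were chosen with earlier results of these data known. Alternatives were quantile normalization, median centring, pseudocounts of 1 and 64, a floor of 10, no filter, a filter at the 60th percentile, no trend, robust eBayes, averaged probe sets (those past the filter) and leaving out each array.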

Additional observations from a re-analysis of the deposited data

How the results depend on the processing

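The count of 0 calls among the 44 genes held in all 16 alternatives by limma, with a smallest adjusted p of 0.0735 (Psme4, without unirradiated replicate 1), and 34 to 39 of the 44 were below 0. The medians of core (-0.14 to -0.07), cap (-0.08 to -0.04), chaperones (-0.22 to -0.13) and of the roles within them stayed below 0; that of the activators became 0.0070 with probe sets averaged, as did Psme1. The 1 call among the 46 became 0 with quantile normalization, median centring, no filter or no trend, and was 0 without any 1 array. The count of calls over all probe sets was 383 (279 higher, 104 lower). It was 223 without a filter (175 and 48) and 171 without a trend (146 and 25). Without 1 array it was 202 to 279, with 150 to 213 higher and 45 to 70 lower. For the partners of the proteasome, 1 was called with probe sets averaged, and 0 to 1 without 1 array. Some signs near 0 turned: Psmb9 with median centring (-0.0015) and when single arrays were left out (-0.044 to 0.096), and in the same way Psmb10 (-0.16 to 0.064, above 0 only without irradiated replicate 3) and Psmf1 (-0.21 to 0.11). The median of the MHC class I list, 0.01, ran from -0.04 to 0.05 over its alternatives. The causes of these changes between settings were not tested. Replicate numbers were assigned here in the order of the deposited samples. No paired analysis was possible because the labels give the arrays of the groups no shared replicate numbers.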
